A study of Mus musculus with 4 samples.

Results

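The endocardial cells described here were chosen by UMIs (unique molecular identifiers, 1 per captured mRNA molecule) of 3 genes, Pla2g7, Prr15 and Apoc1, and they numbered 231 of the 21920 endothelial-sorted cells of mouse hearts at 4 stages. A cell was kept when it held at least 1 UMI of the endocardial genes Npr3 and Tmem108, at least 2 UMIs of Pla2g7, Prr15 and Apoc1 together, more of those than of Igfbp5, Cytl1, Gsta4 and Mfap5, and 0 UMIs of the valve genes Cldn11, Enpp2 and Postn. Its endocardial, Igfbp5-group and Pla2g7-group UMIs together also had to exceed those of the coronary genes Fabp4, Cldn5, Aplnr and Gpihbp1. The comparison group was the 4691 other cells with at least 1 UMI of Npr3 and Tmem108 and more of these than of the coronary genes. Those other endocardial cells include cells of the Igfbp5 and Cytl1 programme and cells with valve genes.

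The cells came from C57Bl6J hearts, sorted as CD31+/CD45- and frozen before droplet capture, with 1 library per stage. The E12 library pooled 37 embryos, the E15 library 48, the postnatal day 2 (P2) library 21 animals and the adult library 6 animals at 8 weeks. Embryonic hearts were digested with Collagenase/Dispase, whereas P2 and adult hearts were first digested with Collagenase II, and only the adult preparation went through red cell lysis. Dead cells were removed with a kit at E12 and E15, and P2 and adult cells were sorted again after thawing. The libraries held 5732 cells (E12), 6062 (E15), 5884 (P2) and 4242 (adult), with a median of 1241, 1013, 4531.5 and 1510 UMIs per cell. With 1 library at each stage there is no replicate, so no test across samples was possible, and stage, library, digestion and depth cannot be told apart. Every interval given is a 95% interval that covers counting error only.

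The endocardium is the endothelial lining of the heart chambers. In the embryo it lines the trabeculae, gives rise to valve mesenchyme by an endothelial to mesenchymal transition, and contributes to the coronary vessels. Pla2g7 encodes the secreted platelet-activating factor acetylhydrolase, an enzyme carried on lipoproteins. Apoc1 encodes a small apolipoprotein and lies on mouse chromosome 7 beside Apoe, the gene of the major apolipoprotein of lipoprotein uptake. Prr15 encodes a small proline-rich protein of poorly known function. Npr3, the natriuretic peptide clearance receptor, is a widely used endocardial marker, and Adgrg6 (Gpr126) is an adhesion G protein-coupled receptor of the endocardium. In the GENCODE M21 annotation of GRCm38, Apoc1 lies at chr7:19689481-19692660 and Apoe at chr7:19696109-19699188, both on the minus strand, Pla2g7 at chr17:43568098-43612201 and Prr15 at chr6:54325835-54330201, both on the plus strand.

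The chosen cells were a minority of the endocardial cells at every stage. There were 54 (E12), 121 (E15), 54 (P2) and 2 (adult). As a share of endocardial cells this was 3.15% at E12 (exact binomial interval 2.38 to 4.10), 5.79% at E15 (4.82 to 6.87), 5.16% at P2 (3.90 to 6.68) and 2.74% in the adult (0.334 to 9.55). Many P2 comparison cells carried valve genes, and of endocardial cells with 0 UMIs of Cldn11, Enpp2 and Postn the chosen cells made up 7.39% at E15 and 18.9% at P2. As a share of all cells they were 0.942%, 2.00%, 0.918% and 0.0471%. The endocardial cells as a whole made up 29.9% of the library (E12), 34.5% (E15), 17.8% (P2) and 1.72% (adult), so the low adult number goes with a library that held few endocardial cells. After every cell was thinned to 500 UMIs, the share was 1.50% at E12, 2.86% at E15 and 3.04% at P2, and the E15 value was then no longer the highest. The chosen cells had a median of 1194 UMIs (E12), 1072 (E15), 3545.5 (P2) and 2048 (adult), against 1280.5, 995, 4601.5 and 2619 in the other endocardial cells. Their median mitochondrial share was 3.39%, 2.68%, 4.57% and 4.43%, against 3.14%, 2.54%, 4.55% and 4.22%. A doublet score above 0.15 was given to 0, 6, 0 and 0 of the chosen cells and to 90, 107, 7 and 0 of the other endocardial cells, and 1, 11, 9 and 0 of them had endocardial UMIs that did not exceed the coronary UMIs.

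Most of the chosen cells carried UMIs of 1 of the 3 genes only. Prr15 alone was found in 82 of the 231 cells (35.5%), Apoc1 alone in 52 (22.5%) and Pla2g7 alone in 6 (2.60%). Pla2g7 and Prr15 without Apoc1 were found in 28 cells, Prr15 and Apoc1 in 42, Pla2g7 and Apoc1 in 11, and all 3 genes in 10 (4.33%). The group is therefore named here by its rule, as Pla2g7/Prr15/Apoc1 cells, since co-detection of Pla2g7 and Prr15 was the exception in it.

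The values of the 3 genes in the group follow from the rule and are given as a description. Levels are in CPM, the UMIs of a gene per 1000000 UMIs summed over the cells of a group. Prr15 stood at 910 CPM (E12), 1221 (E15), 621 (P2) and 244 (adult), against 45.0, 108, 116 and 84.6 in the other endocardial cells. Apoc1 stood at 560, 997, 558 and 977 CPM, against 40.5, 89.0, 117 and 119. Pla2g7 stood at 238, 202, 127 and 732 CPM, against 37.1, 52.0, 112 and 119, so that at P2 the chosen cells held hardly more of it than the rest. Coronary cells held little of any of the 3 genes: Pla2g7 at 4.3 CPM at E12, 2.5 at E15 and 5.3 at P2, Prr15 at 8.6, 8.6 and 12, and Apoc1 at 0, 3.7 and 4.8. Cells just inside the threshold, with 2 UMIs of the 3 genes, numbered 43 at E12, 67 at E15 and 16 at P2 and held 1505, 1849 and 561 CPM of them. Cells just outside, with 1 UMI and otherwise meeting the rule, numbered 110, 151 and 6 and held 740, 957 and 232 CPM.

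**Figure D1:**
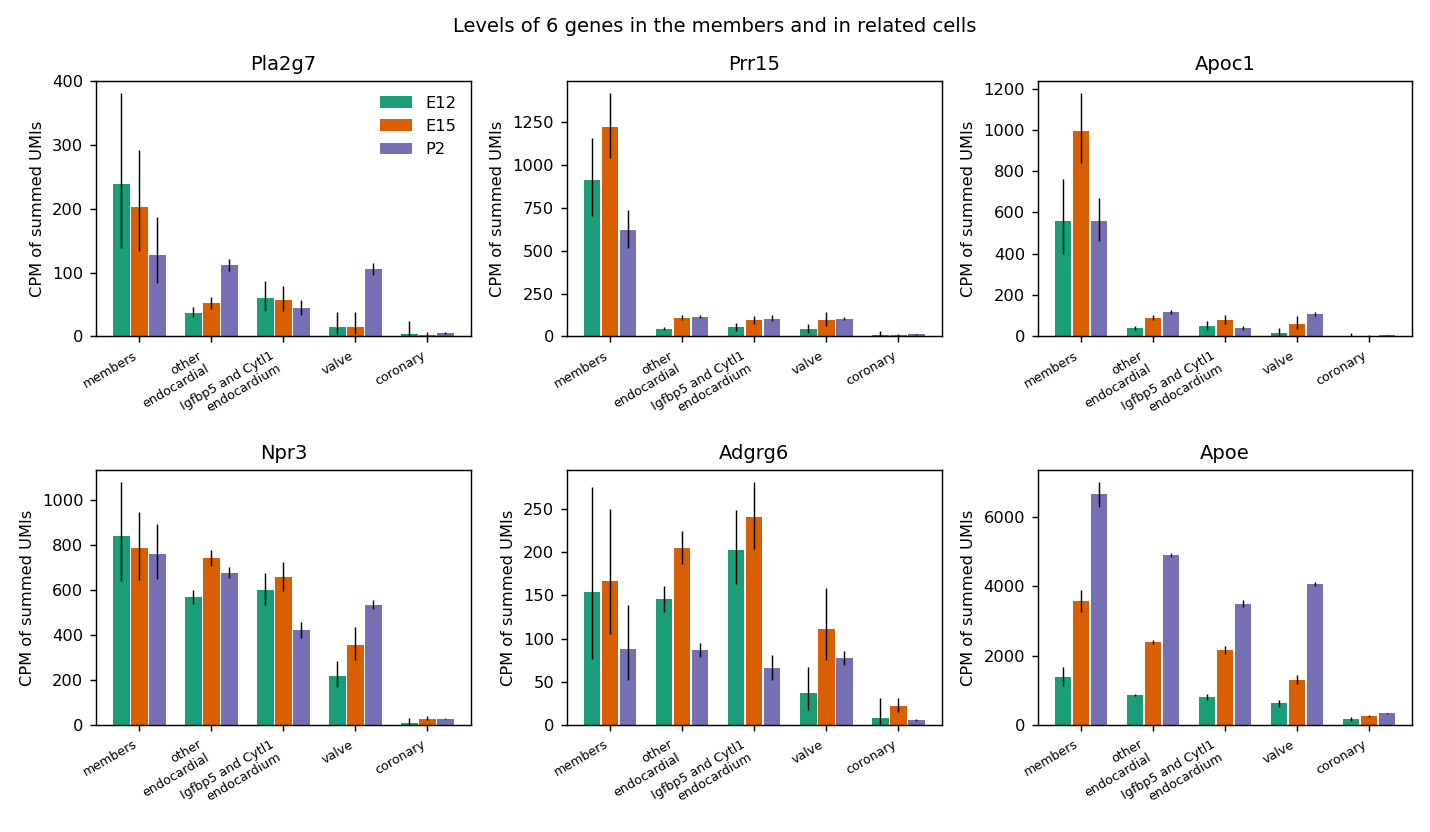
Level of Pla2g7, Prr15, Apoc1, Npr3, Adgrg6 and Apoe at E12, E15 and P2, in CPM of summed UMIs on a linear axis. Groups are the Pla2g7/Prr15/Apoc1 cells, other endocardial cells and related groups, with bars for the 95% Poisson interval. Prr15 and Apoc1 separate the chosen cells at E12, E15 and P2, which the rule fixes. Adgrg6 lies close to the other endocardial cells at those stages, and Npr3 does so at E15 and P2 but is higher at E12.

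UMIs of the 3 genes were also found in endocardial cells outside the chosen group, and in fewer coronary cells. At least 1 UMI of them was found in 18.5% of endocardial cells (E12), 27.0% (E15), 59.0% (P2) and 53.4% (adult), and in 2.75%, 1.78%, 5.95% and 1.15% of coronary cells. At an equal depth of 500 UMIs per cell the endocardial shares were 9.09%, 16.9%, 16.9% and 17.8%, and the coronary shares 0%, 0.686%, 0.988% and 0.25%. Median UMIs before thinning were 1278, 1000, 4547 and 2609 in endocardial cells and 1977, 1142, 4504 and 1473 in coronary cells. At E12, where the deposited matrix also holds near-empty droplets, the 156803 barcodes with fewer than 100 UMIs held Pla2g7 at 31.6 CPM, Prr15 at 33.0 and Apoc1 at 28.8, close to the levels in the other endocardial cells of that stage and above those in coronary cells. The coronary levels at E12 come from 109 cells with few UMIs of the 3 genes. The part of free RNA in the endocardial levels was not tested.

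Of the remaining markers, Npr3 was higher in the chosen cells at E12 and near the other endocardial cells later. It measured 840 CPM (E12), 787 (E15), 763 (P2) and 1709 (adult), against 569, 744, 678 and 1408. The ratio was 1.48 at E12 (interval 1.12 to 1.91), 1.06 at E15 (0.864 to 1.29) and 1.13 at P2 (0.953 to 1.32), and as Npr3 is part of the rule this is a description. Adgrg6 was not detectably higher. It measured 154 CPM (E12), 166 (E15), 88.1 (P2) and 244 (adult), against 145, 205, 86.6 and 79.6 in the other endocardial cells, and the adult value rests on 1 UMI. In cells of the Igfbp5 and Cytl1 programme Adgrg6 measured 203, 240 and 65.5 CPM at E12, E15 and P2. Nfatc1, the endocardial transcription factor needed for valve growth, measured 70.0, 14.4, 44.0 and 0 CPM, against 56.7, 46.7, 67.3 and 34.8. The coronary genes of the rule are kept low by it, so their absence is no separate check.

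To ask whether the 3 genes mark the same cells, each was left out in turn and cells were chosen by 2 or more UMIs of the other 2, among endocardial cells with 0 UMIs of the valve genes. Pla2g7 in the cells chosen by Prr15 and Apoc1 was 0.911 times its level in the rest at E12 (interval 0.184 to 2.75), 1.16 times at E15 (0.540 to 2.22) and 1.20 times at P2 (0.70 to 1.98). Prr15 in the cells chosen by Pla2g7 and Apoc1 was 0.322, 1.12 and 1.48 times the rest, and only the P2 interval (1.01 to 2.11) lay above 1. Apoc1 in the cells chosen by Pla2g7 and Prr15 was 0.685, 1.46 and 0.867 times the rest, with 1 inside each interval. The P2 value of Prr15 was 1.28 (0.909 to 1.75) once cell barcodes were matched as described next. With 1 or more UMIs of the other 2 genes as the limit, the values at E12 and E15 ran from 0.911 to 1.46 and each interval held 1, but at P2 they were 1.81 for Pla2g7 (1.11 to 2.98), 1.56 for Prr15 (1.16 to 2.1) and 1.24 for Apoc1 (0.877 to 1.77). In P2 cells thinned to 500 UMIs and chosen by 1 or more UMIs they were 1.84 (0.455 to 5.53), 2.95 (1.16 to 6.67) and 4.16 (1.74 to 9.31), from 4, 8 and 10 UMIs. No setting at P2 put the intervals of all 3 genes above 1, and with barcodes matched at 2 or more UMIs the P2 intervals of all 3 held 1. Which genes stood above 1 at P2 moved with the setting, and at E12 and E15 no enrichment was detectable at this depth.

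The chosen cells carried cell barcodes with fewer G and C bases than the rest. Each cell has a 16-base barcode that is read with every mRNA of that cell and has no biological meaning. Its mean G and C count was 7.43 in the chosen cells (E12), 7.17 (E15), 7.59 (P2) and 7 (adult), against 8.15, 8.17, 8.16 and 8.27 in the other endocardial cells and 8.17, 8.17, 8.09 and 8.12 in coronary cells. Chosen cells with Prr15 had means of 7.13, 6.5 and 7.12 at E12, E15 and P2. Those with Apoc1 had means of 7.57, 7.97 and 8.32, and those with Pla2g7 had means of 8.17, 7.52 and 7.47. Barcodes of 6 cells are shown as examples of what was counted, for each of 3 stages the chosen cell with most UMIs of Prr15 and the one with most of Apoc1, with A and T in capitals and g and c in lower case.
E12 Prr15 cell, 3 of 800 UMIs, 7 G or C: ATTcTAcTcAgAggTg
E12 Apoc1 cell, 4 of 1056 UMIs, 8 G or C: cTcgTAcTccgATATg
E15 Prr15 cell, 6 of 1288 UMIs, 6 G or C: cTTAAcTAggAcgAAA
E15 Apoc1 cell, 6 of 1491 UMIs, 8 G or C: ccgTggATccATTcTA
P2 Prr15 cell, 10 of 2720 UMIs, 7 G or C: cTcTAcgAggAATTAc
P2 Apoc1 cell, 11 of 2999 UMIs, 7 G or C: AAggAgcTcTcATTcA
The Prr15 barcode had fewer G and C bases than the Apoc1 barcode at E12 and E15, and the same number at P2.

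The share of endocardial cells that met the rule was highest among barcodes with few G and C bases. At E15 it was 17.6% among barcodes with 6 or fewer G or C bases, 5.66% with 7, 4.41% with 8, 1.97% with 9 and 3.72% with 10 or more. At E12 the shares were 6.31%, 4.52%, 2.61%, 2.07% and 1.30%, and at P2 they were 12.2%, 5.58%, 2.62%, 4.17% and 4.32%. With Prr15 taken out of the rule, 2 UMIs of Pla2g7 and Apoc1 were needed, and no such gradient was seen. The shares were then 0.450%, 1.06%, 1.43%, 1.04% and 0.651% at E12, 2.42%, 1.89%, 2.87%, 1.58% and 3.15% at E15, and 3.6%, 2.79%, 1.12%, 3.33% and 3.24% at P2. They rest on 1, 4, 6, 4 and 2 cells at E12, 7, 8, 15, 8 and 11 at E15, and 5, 6, 3, 8 and 6 at P2. So few cells could miss a weaker gradient. The rule without Prr15 found 0.994% of endocardial cells at E12, 2.35% at E15 and 2.50% at P2.

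**Figure D2:**
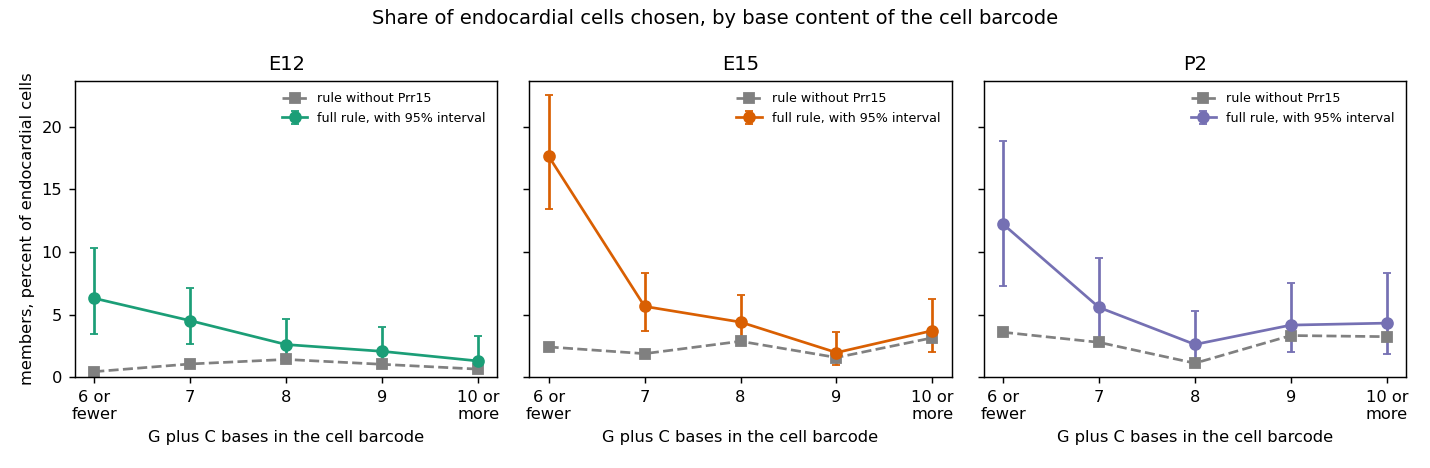
Share of endocardial cells that met the rule, in percent with exact binomial intervals, by the number of G and C bases in the cell barcode, at E12, E15 and P2, with Prr15 in the rule and without it. With Prr15 the share is highest at 6 or fewer G or C bases at each of the 3 stages. Without it, drawn without intervals and from few cells a point, no such gradient was seen.

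Levels of several genes moved with the barcode in all endocardial cells. Actb, the cytoskeletal beta-actin, measured 25959 CPM at E12 in endocardial cells whose barcodes had 6 or fewer G or C bases, 11048 with 7 or 8, and 2741 with 9 or more. The same order held at E15 (19549, 7255, 1803), at P2 (13702, 5187, 1782) and also in adult cells (9304, 8593, 1857), and in coronary cells at E15 (40115, 14234 and 3181). Prr15 measured 199, 74.4 and 21.1 CPM at E12, 571, 144 and 47.9 at E15, and 389, 114 and 68.3 at P2. Pam, Nfia, Slc39a1 and Kdm6b went the same way, with Pam at 736, 166 and 91.5 CPM at E15. Pla2g7 did not, with 57.7, 59.7 and 62.4 CPM at E15, nor did Apoc1 (130, 131 and 146), Apoe (2398, 2464 and 2489) or Npr3 (690, 752 and 758). Between pairs of libraries, 25 to 60 barcodes occurred in both, none of them in a chosen cell of both, and over those barcodes the correlation of Actb levels between the 2 unrelated cells ran from 0.210 to 0.662 (Pearson's r, a description over barcodes). What gives a gene this dependence was not tested. Comparisons were therefore also made against other endocardial cells weighted to the chosen cells' barcode G and C counts, called barcode-weighted. These values are given for many of the comparisons below, but not for all.

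**Figure D3:**
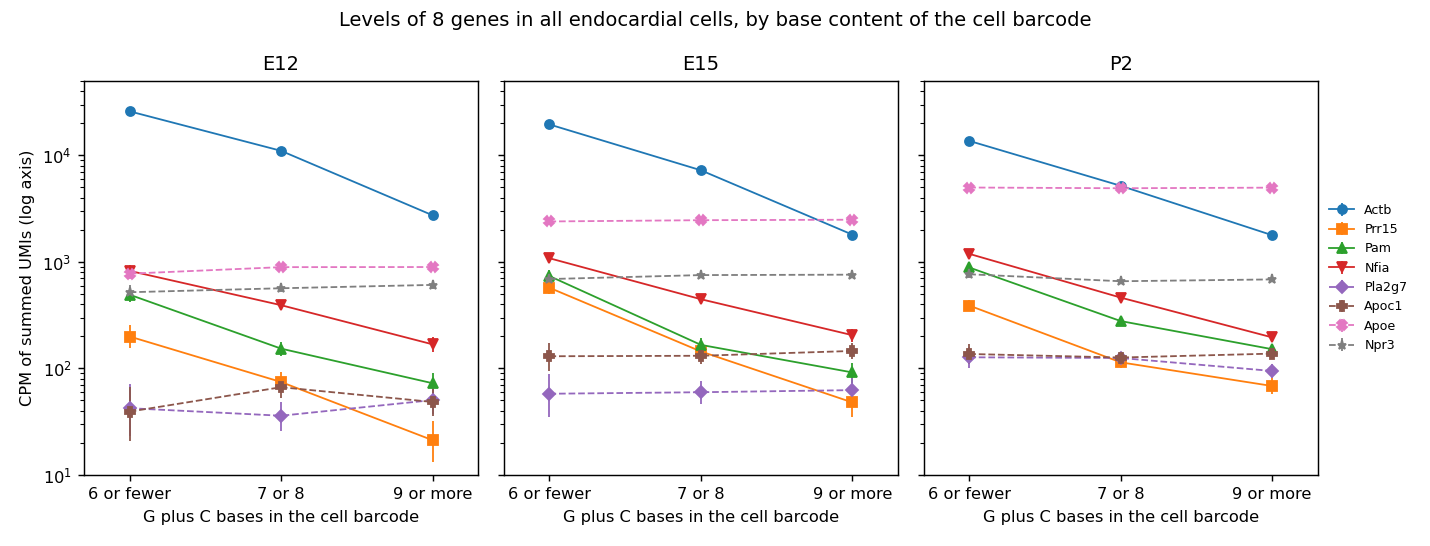
Level in endocardial cells, in CPM on a log axis with 95% Poisson intervals, of genes by the number of G and C bases in the cell barcode. E12, E15 and P2 are drawn. Actb, Prr15 and Pam fall from few to many G and C bases at E12, E15 and P2, and Pla2g7, Apoc1, Apoe and Npr3 stay level at E15.

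Outside the rule, few genes differed from the other endocardial cells in the same direction at E12, E15 and P2. Genes past 1.5-fold were counted among those with at least 20 UMIs over both groups. Of 8536 genes at E12, 19.7% were higher and 35.3% lower. The shares were 14.1% and 27.6% of 8356 genes at E15, 15.7% and 25.2% of 10177 genes at P2, and 28% and 49.3% of 1758 genes in the 2 adult cells. The chosen cells summed to 71397 UMIs at E12, where both shares were above those of E15 and P2. Of 7763 genes measured at E12, E15 and P2, 56 were past 1.5-fold higher at all 3 stages (0.721%) and 266 lower (3.43%). Against barcode-weighted cells 63 were higher (0.812%) and 268 lower (3.45%), with 41 and 238 genes shared between the unweighted and weighted counts. Against barcode-weighted cells without valve genes, 43 of 5822 were higher (0.739%) and 120 lower (2.06%). Past the threshold in all 3 counts were 13 genes that were higher and 79 that were lower. Over all 4 stages 2 of 1700 genes were higher (0.118%), G0s2 among them, and 12 were lower (0.706%). The median log2 ratio over all genes was -0.05 (E12), -0.04 (E15), -0.02 (P2) and -0.47 (adult).

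Apoe, the neighbour of Apoc1, was higher in the chosen cells at E12, E15 and P2, by less than the 1.5-fold limit at the last 2 of these. Apoe measured 1373 CPM (E12), 3576 (E15), 6648 (P2) and 14893 (adult), against 863, 2399, 4895 and 12863 in the other endocardial cells. The Apoe ratio was 1.59 at E12 (interval 1.29 to 1.95), 1.49 at E15 (1.36 to 1.63), 1.36 at P2 (1.29 to 1.43) and 1.16 in the adult (0.883 to 1.49). Barcode-weighted, the Apoe ratios at the first 3 stages were 1.65, 1.54 and 1.36, and without valve genes in the comparison 1.55, 1.42 and 1.52. In other cell groups Apoe was lower, with 811, 2153 and 3495 CPM at E12, E15 and P2 in cells of the Igfbp5 and Cytl1 programme, 625, 1306 and 4075 in valve cells and 172, 272 and 340 in coronary cells. Among endocardial cells with 0 UMIs of the valve genes, split by single genes, those with Apoc1 held 1.34, 1.25 and 1.51 times the Apoe of those without, those with Prr15 1.37, 1.19 and 1.24 times, and those with Pla2g7 1.06, 1.04 and 1.41 times. Split by the Igfbp5 programme, cells with 2 or more of its UMIs held 0.887, 0.839 and 0.717 times the Apoe of cells without it. Cells without it held Apoe at 930 CPM (E12), 2703 (E15) and 6454 (P2), below the chosen cells at E12 and E15 and near them at P2. The rule also keeps Igfbp5-group UMIs low in the chosen cells, and its part in the Apoe ratios was not tested. Apoe and Apoc1 lie next to each other on the same strand, and reads that the counting could have split between them were not examined here.

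Sepp1, Ctsl and Vwf were among the 10 genes with the highest barcode-weighted means over E12, E15 and P2. Sepp1 (Selenop in the current annotation), the plasma selenium carrier, measured 140 CPM at E12, 303 at E15 and 1546 at P2, against 88.8, 203 and 822, with ratios of 1.58 (0.745 to 2.96), 1.50 (1.06 to 2.06) and 1.88 (1.67 to 2.11). In the 2 adult cells Sepp1 was at 1953 CPM against 2567. Its barcode-weighted ratios were 1.71, 1.53 and 1.94. In the split by the Igfbp5 programme, cells without it held Sepp1 at 107 CPM (E12), 257 (E15) and 1554 (P2). A further comparison took only chosen cells with 0 UMIs of the Igfbp5 group. It set them against cells with 0 UMIs of that group, of Pla2g7, Prr15 and Apoc1, and of the valve genes. With these cells, called cells with no UMIs of other programmes, the mean log2 ratio of Sepp1 over E12, E15 and P2 turned to -0.0098. Ctsl, the lysosomal protease cathepsin L, measured 420, 722 and 1502 CPM against 267, 503 and 1109, with ratios of 1.57 (1.05 to 2.27), 1.44 (1.16 to 1.76) and 1.35 (1.20 to 1.52) and barcode-weighted ratios of 1.64, 1.49 and 1.36. Vwf, the haemostatic von Willebrand factor, stood at 126, 123 and 220 CPM against 54.6, 75.3 and 131. Its ratio was 2.31, 1.63 and 1.68, but against barcode-weighted cells without valve genes it was 2.36, 1.34 and 1.05, so the P2 difference was lost there.

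Other genes that kept their size after barcode weighting were Bik, Snrk, G0s2, Id2 and Etnk1. Bik, a pro-apoptotic member of the Bcl2 family, measured 70.0 CPM at E12, 188 at E15 and 132 at P2 against 43.4, 78.4 and 72.3, with ratios of 1.61 (0.513 to 3.89), 2.40 (1.52 to 3.63) and 1.83 (1.19 to 2.70) and weighted ratios of 1.79, 2.53 and 1.86. Against barcode-weighted cells without valve genes the Bik ratios were 1.65, 2.09 and 1.33 (0.876 to 1.93 at P2), so the P2 value was no longer past 1.5-fold. Snrk, a kinase related to AMPK, measured 196, 202 and 240 CPM against 101, 158 and 112, and was 1.94, 1.28 and 2.14 times as high. G0s2, an inhibitor of the triglyceride lipase Atgl, was 2.19 (0.436 to 6.81), 1.80 (1.09 to 2.84) and 1.85 (1.06 to 3.04) times as high at E12, E15 and P2, from 3, 21 and 17 UMIs, and 6.77 times in the adult, from 4 UMIs. Etnk1, the ethanolamine kinase of phosphatidylethanolamine synthesis, was 2.21, 1.68 and 1.57 times as high, and 2.07, 1.42 and 1.57 times without valve genes. March2, a membrane-bound ubiquitin ligase, was 3.17, 1.76 and 1.22 times and St6galnac3, a sialyltransferase, 2.67, 1.40 and 1.62 times as high, and without valve genes March2 was at 3.19, 1.34 and 1.25 and St6galnac3 at 2.57, 1.21 and 1.34 times. Id2, an inhibitor of basic helix-loop-helix factors, was 1.23, 1.42 and 1.98 times as high, and at P2 it measured 1311 CPM against 661, though its ratio there was 1.42 against barcode-weighted cells without valve genes. The 13 genes past 1.5-fold in all 3 counts were G0s2, Tanc1, Tmem251, Psmg1, Zfp395, Arih2, Ccdc71l, Ncoa3, Mettl6, Crnkl1, Clpx, Xpot and 1300002E11Rik. They rested on few UMIs: Ncoa3, a nuclear receptor coactivator, had 5, 9 and 10 UMIs in the chosen cells, Arih2, a ubiquitin ligase, 3, 4 and 8, and Clpx, a mitochondrial chaperone, 2, 4 and 13. Some of these means depended on depth or on the cells compared. After thinning to 500 UMIs the mean log2 ratio over E12, E15 and P2 was -1.60 for Snrk, -0.12 for March2 and -0.15 for Vwf, and over all 4 stages it was -0.34 for G0s2. With chosen and comparison cells limited to those with no UMIs of other programmes, the mean over E12, E15 and P2 was -0.0098 for Sepp1.

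Ranked by the mean over all 4 stages, which the 2 adult cells weigh on, the 10 highest genes of 1 sign were G0s2, Pam, Wtap, Pgls, Nfia, Nr2f2, Scoc, Auts2, Smad7 and Rbm7. The 10 lowest were Lgals1, Nts, S100a6, S100a10, Dcn, Cd34, Tuba1a, Tsc22d1, Serpinh1 and Fxyd5. After thinning to 500 UMIs this mean changed sign for G0s2, Pam, Wtap, Pgls, Nfia, Scoc, Rbm7 and Serpinh1. With UMIs of at least 2 of the 3 rule genes it changed sign for G0s2, Nr2f2 and Auts2.

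Pam, Nfia, Kdm6b, Slc39a1 and Pdcd4 had smaller ratios under barcode weighting, by amounts that differed between genes and stages. Pam, the enzyme that amidates peptide hormones, had the highest mean log2 ratio over E12, E15 and P2 of the genes outside the rule that were measured at all 3. Without Prr15 in the rule that mean was -0.12 for Pam and -0.023 for Nfia. After thinning to 500 UMIs it was -0.16 for Kdm6b. Pam measured 224 CPM (E12), 441 (E15), 670 (P2) and 1709 (adult), against 165, 207, 293 and 662, with ratios of 1.36 (0.770 to 2.24), 2.13 (1.60 to 2.78), 2.29 (1.91 to 2.73) and 2.58 (1.02 to 5.47). Barcode-weighted, the Pam ratios at the first 3 stages were 0.897, 1.12 and 1.59, and without valve genes 0.939, 1.06 and 1.11, so that at P2 Pam was still past 1.5-fold until valve genes were left out. Nfia, a nuclear factor I transcription factor, went from 1.42, 1.90 and 1.50 to 1.03, 1.24 and 1.08, and without valve genes to 1.03, 1.26 and 1.37 (1.15 to 1.62 at P2). Kdm6b, a histone H3 demethylase, went from 1.70, 1.69 and 1.82 to 1.12, 1.01 and 1.31, and without valve genes to 1.12, 0.991 and 1.57 (1.14 to 2.1 at P2). Slc39a1, a zinc importer, went from 1.28, 2.18 and 1.51 to 0.860, 1.17 and 0.995, and without valve genes to 0.838, 1.11 and 1.09. Pdcd4, an inhibitor of translation, went from 2.25, 1.54 and 1.57 to 1.72, 1.11 and 1.20, and without valve genes to 1.63, 1.02 and 1.27, so its E12 value stayed past 1.5-fold (1.11 to 2.53 when barcode-weighted). Endocardial cells with 0 UMIs of the valve genes were also split by single genes. Those with Prr15 held 2.19, 2.23 and 2.27 times the Actb of those without, 1.85, 2.24 and 1.78 times the Pam and 2.38, 3.24 and 2.46 times the Slc39a1, whereas those with Apoc1 held 0.95, 0.92 and 1.09 times the Actb and 0.45, 1.01 and 0.90 times the Pam.

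**Figure D4:**
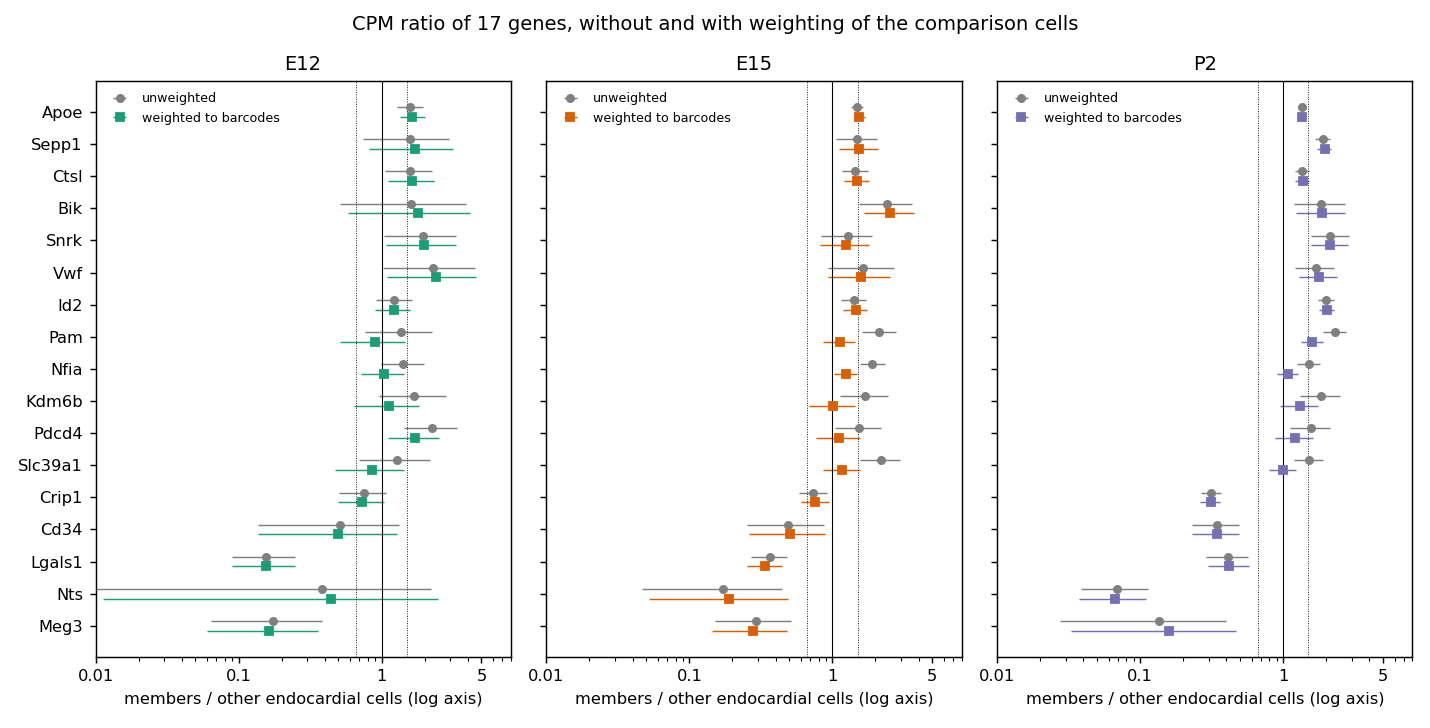
Ratio of CPM in the Pla2g7/Prr15/Apoc1 cells to CPM in other endocardial cells, on a log axis, for named genes at E12, E15 and P2. Unweighted and barcode-weighted ratios are drawn. Apoe, Sepp1 and Ctsl keep their place under weighting, whereas Pam, Nfia and Slc39a1 move towards 1.

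Lgals1, Col1a1 and Dcn were lower in the chosen cells at E12, E15 and P2, whereas the list of basement membrane and matrix genes was not, as given below. Lgals1, which encodes the secreted lectin galectin-1, measured 238 CPM (E12), 361 (E15), 186 (P2) and 0 (adult), against 1531, 993, 455 and 463. The Lgals1 ratio was 0.156 at E12 (interval 0.0905 to 0.249), 0.364 at E15 (0.269 to 0.481) and 0.409 at P2 (0.288 to 0.563). Its barcode-weighted ratios were 0.16, 0.34 and 0.42, and against cells without valve genes they were 0.21, 0.62 and 0.59. Col1a1, a chain of type I collagen, stood at 14, 7.22 and 0 CPM against 270, 281 and 10.6, from 1, 1 and 0 UMIs, and its P2 difference was within the counting interval. Dcn, the matrix proteoglycan decorin, stood at 0, 14.4 and 435 CPM against 55.9, 145 and 652. Against barcode-weighted cells without valve genes Dcn was at 0.237 times (0.0287 to 0.856) at E15 and 0.741 times (0.595 to 0.912) at P2. Lum, the related lumican, stood at 0 and 7.22 CPM against 149 and 135 at E12 and E15, but at 259 against 217 at P2. The rule requires 0 UMIs of 3 valve and matrix genes in the chosen cells and not in the others. Against barcode-weighted cells that also had 0 UMIs of them, Col1a1 was at 0.055 times at E12 (0.0014 to 0.304) and 0.042 times at E15 (0.0011 to 0.236), and at 0 UMIs at P2.

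Lower genes also included some that are not matrix genes. Nts, the neuropeptide neurotensin, measured 14, 28.9 and 73.4 CPM against 36.3, 168 and 1066, with a ratio of 0.0688 at P2 (0.0385 to 0.114) and of 0.19 there against barcode-weighted cells without valve genes. Meg3, a maternally expressed long noncoding RNA, was at 84.0, 86.7 and 14.7 CPM against 482, 296 and 109. Cd34, a sialomucin of capillary and other endothelial cells, was at 56.0, 86.7 and 147 CPM against 110, 177 and 429, with a ratio of 0.342 at P2 (0.23 to 0.49). The calcium-binding protein gene S100a6 was at 14, 14.4 and 14.7 CPM against 101, 49.8 and 90.2. Crip1, a LIM-domain protein, was 0.751, 0.732 and 0.315 times as high, and at P2 it measured 748 CPM against 2380. Aqp1, a water channel, was at 0, 0 and 34.2 CPM against 40.5, 57.3 and 167. Tbx20, a cardiac transcription factor, was at 14, 0 and 0 CPM against 140, 54.6 and 9.76.

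The lipoprotein and lipid handling list was higher as a sum, through its 2 most abundant genes. Over the list, excluding rule genes, the summed level was 4384 CPM at E12, 10374 at E15 and 12949 at P2, against 3368, 8103 and 10887, with ratios of 1.30 (1.16 to 1.46), 1.28 (1.21 to 1.35) and 1.19 (1.14 to 1.24) and barcode-weighted ratios of 1.32, 1.33 and 1.20. The median log2 ratio of its measured genes was -0.23, 0.06 and 0.10, beside the medians over all genes given above. Of these genes, 1 of 9 was past 1.5-fold higher and 3 lower at E12, 0 and 3 of 11 at E15, and 0 and 0 of 11 at P2, beside 19.7% and 35.3% of all genes at E12, 14.1% and 27.6% at E15, and 15.7% and 25.2% at P2. Fabp5, a fatty acid binding protein, and Apoe made up most of the sum, and Fabp5 was 1.33, 1.21 and 1.07 times as high. The list of phospholipase and platelet-activating factor genes, the pathway of Pla2g7, was at 1.01, 0.660 and 1.04 times the other cells. In it 2 of 9 genes were higher and 2 lower at E12, 0 and 3 of 6 at E15, and 1 and 2 of 11 at P2, beside the same shares of all genes.

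Flow-responsive genes were lower at P2. The list summed to 406 CPM at E12, 607 at E15 and 1321 at P2, against 445, 764 and 2325, and the ratio was 0.913 (0.608 to 1.32), 0.794 (0.630 to 0.989) and 0.568 (0.502 to 0.641), with barcode-weighted ratios of 0.886, 0.815 and 0.587. The median log2 ratio of its genes was -0.24, -0.18 and -0.65. At P2, 5 of 8 genes were past 1.5-fold lower and 1 higher, beside 25.2% and 15.7% of all genes. Klf2, the shear-stress-induced transcription factor, measured 210, 332 and 822 CPM against 234, 431 and 1548, with a ratio of 0.531 at P2 (0.453 to 0.619). Its partner Klf4 was at 0.436, 0.497 and 0.485 times the other cells and Nos3, the endothelial nitric oxide synthase, at 0.54 times at P2. Edn1, the vasoconstrictor endothelin-1, went the other way at P2, at 210 CPM against 105 (ratio 2.01, 1.44 to 2.75).

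The summed levels of the BMP and Id, VEGF and arterial lists were above the other cells at P2 and near or below them at E12 and E15. The BMP and Id list was at 0.945, 0.996 and 1.41 times the other cells at E12, E15 and P2, led by Id2 at P2, but at 1.13 times at P2 against barcode-weighted cells without valve genes. The VEGF list was at 1.00, 0.967 and 1.34 times, led by Nrp1, a co-receptor of VEGF, at 1.56 times at P2, and it was at 1.37 times there without valve genes. At P2, 2 of 9 VEGF genes were past 1.5-fold higher and 2 lower, with a median log2 ratio of -0.0015, and Nrp1 was the most abundant of them. In the BMP and Id list 3 of 8 were higher and 0 lower at P2 (median log2 ratio 0.28), and in the arterial list 5 of 10 and 0 (median 0.17), beside 15.7% and 25.2% of all genes. At E12, 1 of 8 VEGF genes was higher and 6 lower, 3 and 4 of 9 arterial genes, and 0 and 3 of 8 BMP and Id genes. At E15 these were 1 and 1 of 7, 0 and 5 of 9, and 0 and 3 of 8. The shares of all genes were 19.7% and 35.3% at E12 and 14.1% and 27.6% at E15. Kdr, the main VEGF receptor, was at 0.581, 0.535 and 0.999 times and Flt1, the decoy receptor, at 1.75, 1.41 and 1.25 times. The venous list was at 1.47, 1.06 and 1.47 times, with Nr2f2, the venous identity factor, at 1.71, 1.29 and 1.91 times and at 1.49, 1.02 and 1.71 times when barcode-weighted. Without valve genes the venous list was at 1.29, 0.871 and 1.23 times. The arterial list was at 0.773, 0.749 and 1.40 times, but at 1.17 times at P2 without valve genes, where the interval (0.985 to 1.38) held 1. Whether these ratios differ between stages could not be tested with 1 library a stage. The Notch list (0.969, 0.930 and 0.951) and the TGF-beta list (0.836, 0.909 and 0.877) stayed near or below the other cells.

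The pan-endothelial list was higher as a sum, and the endocardial list was level. The pan-endothelial sum was 1.20 times as high at E12 (interval 1.04 to 1.38), 1.12 at E15 (1.02 to 1.22) and 1.12 at P2 (1.07 to 1.18), with Emcn, the endothelial sialomucin endomucin, at 1.56, 1.25 and 1.22 times and Eng, the TGF-beta co-receptor endoglin, at 1.33, 1.24 and 1.29 times. Of its 12 genes 3 were past 1.5-fold higher and 1 lower at E12, 0 and 2 at E15, and 0 and 0 at P2, beside 19.7% and 35.3%, 14.1% and 27.6%, and 15.7% and 25.2% of all genes. Against barcode-weighted cells without valve genes the sum was at 1.11 (0.962 to 1.27), 1.06 (0.978 to 1.15) and 1.09 times (1.04 to 1.15), so the intervals at E12 and E15 held 1. The endocardial list apart from rule genes was at 1.13 (0.987 to 1.29), 1.01 (0.919 to 1.11) and 0.952 times (0.887 to 1.02). The trabeculation and cardiac jelly list was at 0.585, 0.779 and 1.11 times, in which Nrg1, the neuregulin that signals to trabecular muscle, was at 2.2 (0.862 to 4.68), 1.20 (0.536 to 2.35) and 2.08 times (1.25 to 3.30). Hapln1, a hyaluronan link protein of cardiac jelly, was at 126, 0 and 4.89 CPM against 238, 43.2 and 26.0. The imprinted growth genes were at 1.11, 1.05 and 1.05 times, with H19 the most abundant. Against barcode-weighted cells without valve genes they were at 1.06, 1.00 and 0.975 times (0.940 to 1.01 at P2). The trabeculation and cardiac jelly list was at 0.923 times (0.770 to 1.10) at P2 against those cells. Both P2 values were then below 1, but 1 lay inside both intervals. Unweighted, the P2 interval of the trabeculation list (0.919 to 1.32) already held 1. Proliferation genes were at 0.964, 1.14 and 0.429 times. At P2, 14 of 16 of them were past 1.5-fold lower, beside 25.2% of all genes, at 201 CPM against 468, but against barcode-weighted cells without valve genes the list was at 0.779 times (0.559 to 1.06). Against the same kind of cells at E15 it was higher, at 1.30 times (1.10 to 1.54).

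**Figure D5:**
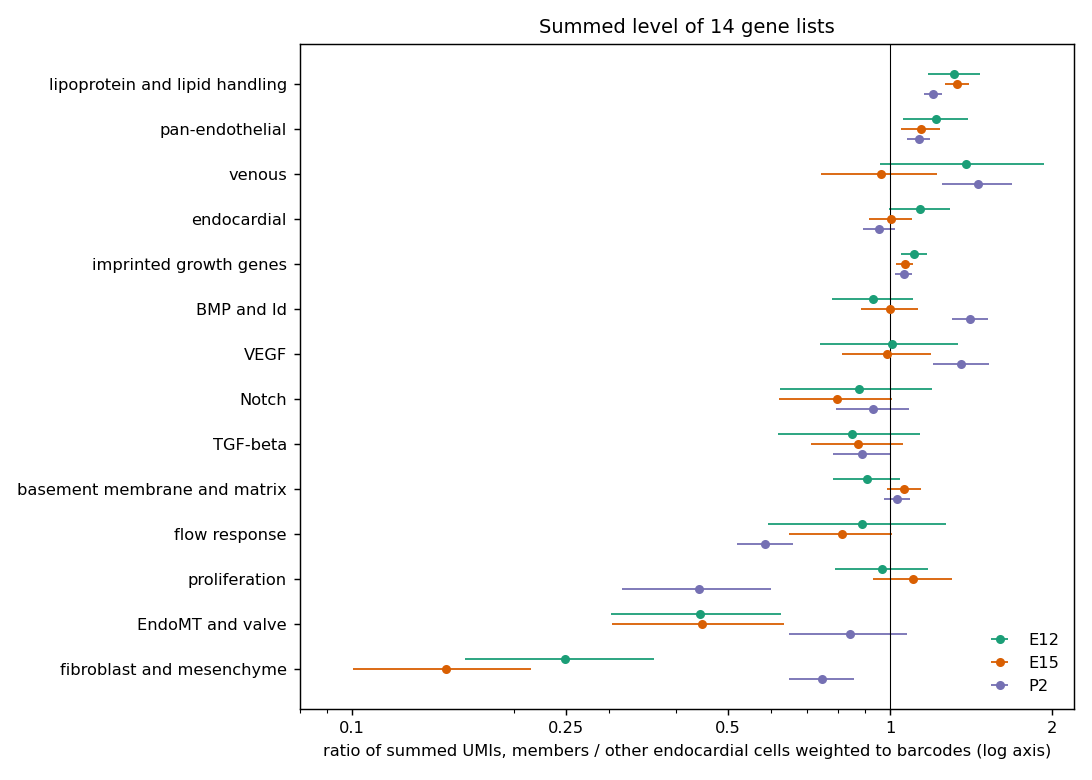
Barcode-weighted ratio of the summed UMIs of selected gene lists in the Pla2g7/Prr15/Apoc1 cells to those in other endocardial cells. The axis is a log axis, with 95% intervals, at E12, E15 and P2. The fibroblast and EndoMT lists lie below 1 at E12 and E15, the lipoprotein list lies above 1 at all 3 stages and the flow response list is lowest at P2.

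Lists of general cell functions were within 1.5-fold of the other cells as sums, some with intervals that did not hold 1. At E12, E15 and P2 the basement membrane and matrix list was at 0.910, 1.03 and 1.02 times, led at E15 and P2 by Mgp, the matrix Gla protein. The cell junction list was at 1.08, 1.19 and 1.07 times, with Cdh5, the VE-cadherin of endothelial junctions, its most abundant gene. The heat shock list was at 1.10, 1.03 and 0.938 times and the adhesion receptor list that holds Adgrg6 at 1.11, 0.794 and 0.976 times. Unweighted, the intervals of these 4 lists held 1 at each of the 3 stages. The adhesion receptor list at E15 was at 0.772 times (0.590 to 0.992) when barcode-weighted, and at 0.732 times (0.560 to 0.941) without valve genes. The heat shock list at E12 was at 1.17 times (1.005 to 1.36) against barcode-weighted cells without valve genes. The natriuretic and vasoactive list was at 1.22 (1.03 to 1.44), 1.09 (0.984 to 1.20) and 0.818 times (0.748 to 0.893). Its E12 value was 1.16 (0.979 to 1.36) against barcode-weighted cells without valve genes, so that interval held 1. The immediate-early list, which rises with dissociation of tissue, was at 0.779 (0.626 to 0.959), 0.831 (0.719 to 0.956) and 1.07 times (0.991 to 1.16). Against barcode-weighted cells without valve genes the immediate-early list was at 0.865 (0.697 to 1.06), 0.914 (0.794 to 1.05) and 0.922 times (0.851 to 0.996), so that the intervals at E12 and E15 then held 1 and the direction at P2 turned. The interferon list was at 1.27 (1.04 to 1.53), 1.08 (0.958 to 1.21) and 0.916 times (0.848 to 0.989), and the MHC list at 0.876 (0.584 to 1.26), 1.09 (0.890 to 1.33) and 0.866 times (0.762 to 0.980). At P2 the interferon list was at 0.938 times (0.869 to 1.01) against barcode-weighted cells without valve genes, so that interval held 1. The MHC list at P2 was at 0.887 times (0.783 to 1.001) when barcode-weighted, and at 0.801 times (0.707 to 0.905) without valve genes. Cardiac transcription factors were at 1.14 (0.947 to 1.37), 1.23 (1.09 to 1.39) and 1.19 times (1.08 to 1.31), led by Nfia, and at 1.05, 1.07 and 1.09 times when barcode-weighted. The coronary capillary list apart from rule genes was at 0.941, 1.11 and 0.891 times, and against barcode-weighted cells without valve genes it was at 0.743 times at P2 (0.644 to 0.853).

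Markers of other cell types differed between lists and stages. The fibroblast and mesenchyme list summed to 364 CPM at E12, 209 at E15 and 1022 at P2, against 1371, 1219 and 1377, with 10 of 10, 10 of 10 and 5 of 8 measured genes past 1.5-fold lower, beside 35.3%, 27.6% and 25.2% of all genes, and a median log2 ratio of -0.84, -0.85 and -0.28. Col3a1 was its most abundant gene at E12 and E15 and Dcn at P2. The EndoMT and valve list was at 0.457, 0.495 and 0.818 times the other cells, with 10 of 14, 11 of 13 and 6 of 8 lower, beside the same shares of all genes. Against barcode-weighted cells without valve genes it was at 0.573 (0.392 to 0.809), 0.712 (0.484 to 1.01) and 0.813 times (0.628 to 1.04), and the fibroblast list at 0.315, 0.325 and 0.846 times. The macrophage list, whose cells the CD45- sort leaves out, summed to 0 CPM (E12), 21.7 (E15), 4.89 (P2) and 0 (adult), against 25.0, 38.3, 5.19 and 14.9, with 12, 10, 11 and 12 of its 12 genes at 0 in the chosen cells. The erythroid list summed to 336, 28.9, 0 and 0 CPM against 2078, 96.0, 12.7 and 39.8, with Hbb-y the most abundant at E12 and 4 of 9 genes at 0 there. Epicardial genes summed to 0, 7.22 and 14.7 CPM against 152, 46.7 and 19.5, and lymphatic genes to 14, 50.6 and 53.8 against 62.6, 72.2 and 175. Mural genes summed to 28.0, 72.2 and 19.6 CPM against 341, 145 and 18.1, and platelet genes to 14, 14.4 and 24.5 against 23.8, 15 and 18.7, so neither list was lower at P2. The cardiomyocyte list, led by Tnni1, was at 392, 130 and 166 CPM against 386, 299 and 148, and was lower at E15 only. The part of such RNA in the differences was not tested.

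Within the chosen cells, those led by Pla2g7 and those led by Prr15 differed most in Actb by the mean log2 ratio over E12, E15 and P2, and Actb moves with the barcode. A cell was led by the gene of the 2 with more UMIs, which gave 5 Pla2g7-led and 32 Prr15-led cells at E12, 10 and 72 at E15, and 6 and 34 at P2. Their barcodes had a mean of 9 against 7 G or C bases, 8.9 against 6.4, and 8.67 against 6.91. Actb measured 2861 CPM in Pla2g7-led against 19284 in Prr15-led cells at E12, 5352 against 16162 at E15, and 1925 against 8618 at P2. Cbx3, Ubl5, Gm9493 and Gnb1 followed Actb among genes higher in the Prr15-led cells. Hmgb2, a chromatin protein abundant in dividing cells, was highest by that mean in the Pla2g7-led cells relative to the Prr15-led ones (9.01, 2.92 and 1.49 times) and at E12 differed more than Actb, followed by Top1, 2700094K13Rik, Calm2 and mt-Nd5. With 5 to 10 Pla2g7-led cells a stage, these values are descriptions of few cells.

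The 2 adult cells held 2139 and 1957 UMIs. One had UMIs of all 3 genes and the other of Apoc1 only. They held Apoe at 14893 CPM and Pam at 1709 CPM, and no Lgals1, Klf2, Nfatc1 or Cd34. The genes highest in them relative to the 71 other adult endocardial cells were Nupr1, a stress-induced chromatin protein, at 6 UMIs and 10.9 times (3.68 to 27.0), Airn, the antisense noncoding RNA of the imprinted Igf2r locus, and Trf, the iron carrier transferrin, at 3 UMIs and 7.01 times (1.34 to 23.5). At the other stages the genes highest by the same measure and not yet named were Yae1d1 and Dhx8 at E12 (5.21 and 5.76 times), Clasp2 at E15 (3.58 times) and Ssbp2 at P2 (3.24 times).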

How the data were processed

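The deposited files held UMI counts per gene and cell barcode, made by the authors with Cell Ranger 2.2 on mm10 from droplet libraries of sorted CD31+/CD45- cells, without normalization. No doublet filter of the authors was applied here. At E12, where all barcodes are in the file, those with at least 452 UMIs were kept, and elsewhere every barcode was kept. Counts were summed per group and stage in Python 3.11.15, with numpy 2.4.6 and scipy 1.17.1. Library totals were 8122358 UMIs (E12), 7079759 (E15), 29645059 (P2) and 7650091 (adult). Ratios of CPM carry an exact conditional binomial interval, levels a Poisson interval and shares an exact binomial one. For barcode-weighted ratios the interval covers the UMIs of the chosen cells only. With 1 library a stage no test was run. Doublets were scored within each library with a neighbour method against simulated pairs, and no cell was removed.

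The members and gene lists were chosen with earlier results of these data known. Genes were named by ranked means of log2((CPM + 50)/(CPM + 50)) over stages with 1 sign, by rank at each stage, by abundance in each list and by the widest range over stages. The barcode weighting, the ranking over E12, E15 and P2, the rule without Prr15 and the split by single genes were chosen after seeing the data. The steps were checked on simulated data. Alternatives changed the limits on cells, the threshold, the depth, the comparison cells and the pseudocount.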

Additional observations from a re-analysis of the deposited data

Results flagged for a closer look

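Nupr1 stood out because it lay on opposite sides in 2 stages. The ratio of its CPM in the Pla2g7/Prr15/Apoc1 cells to that in other endocardial cells was 10.9 in the adult, from 6 UMIs in 2 cells, and 0.271 at P2, from 3 UMIs. The difference between the stages was not tested.

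In the near-empty E12 droplets, outside the cells that were grouped and compared, the barcodes with fewer than 100 UMIs held 23 UMIs of Pla2g7, 24 of Prr15 and 21 of Apoc1, above the limit of 3 that a count of 0 allows.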

How the results depend on the processing

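Each stage had 1 library, so depth and the few chosen cells limit every value, and which genes differ rests on the choice of comparison cells and on the rule. No paired analysis was possible because each stage has 1 library and the shared replicate number 1 pairs nothing. Of 1290 values of named genes under the alternatives, 1038 stayed within their counting interval, 233 moved beyond it with the same sign and 19 changed sign. The cause of each change was not tested. The limits of the study on cells, the doublet score, the higher UMI minimum at E12 and dropping dividing cells moved the shares by less than their intervals. Alternatives named here as using barcodes, 2 of the 3 genes, the rule without Prr15 or other programmes were chosen after seeing the data.

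The share of endocardial cells at E12, E15 and P2 was 0.643%, 2.59% and 3.64% with 3 or more UMIs of the 3 genes, 1.50%, 2.86% and 3.04% after thinning to 500 UMIs, 1.07%, 2.33% and 2.46% with UMIs of at least 2 of the 3 genes, and 0.994%, 2.35% and 2.50% for the rule without Prr15. It was 2.06%, 3.34% and 3.61% among barcodes with 8 or more G or C bases and 5.18%, 10.5% and 8.19% among those with 7 or fewer. Of valve-free endocardial cells it was 7.39% at E15 and 18.9% at P2.

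The 56 genes higher at E12, E15 and P2 became 36 after thinning, 31 against valve-free cells, 2 against cells with no UMIs of other programmes, 97 with at least 2 of the 3 genes, 21 with a minimum of 50 UMIs and 6 at 2-fold. The 266 lower genes became 533 with 3 or more UMIs, 136 after thinning, 114 against valve-free cells, 120 with barcode weighting as well, 6 against cells with no UMIs of other programmes, 547 with at least 2 of the 3 genes, 534 without Prr15, 95 with a minimum of 50 UMIs and 112 at 2-fold. The 2 genes higher at all 4 stages became 4 with 3 or more UMIs, 1 with E12 barcodes of at least 1000 UMIs, 1 against valve-free cells, 1 under barcode weighting with or without valve genes, and 0 after thinning, against cells with no UMIs of other programmes, with a minimum of 50 UMIs and at 2-fold. The 12 lower genes became 33 with at least 2 of the 3 genes, 19 without Prr15, 6 with a minimum of 50 UMIs, 7 at 2-fold, and 0 after thinning and against cells with no UMIs of other programmes.

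Mean log2 ratios over 4 stages that changed sign after thinning were G0s2 (-0.34), Pam (-0.26), Wtap (-0.54), Pgls (-0.69), Nfia (-0.76), Scoc (-0.011), Rbm7 (-1.19) and Serpinh1 (0.30). With at least 2 of the 3 genes they were G0s2 (-0.28), Nr2f2 (-0.29) and Auts2 (-0.23). Means over E12, E15 and P2 changed sign after thinning for Kdm6b (-0.16), Snrk (-1.60), March2 (-0.12) and Vwf (-0.15), without Prr15 for Pam (-0.12) and Nfia (-0.023), with 3 or more UMIs for Vwf (-0.0020) and against cells with no UMIs of other programmes for Sepp1 (-0.0098). Apoe and Lgals1 kept their sign in all alternatives run for them over E12, E15 and P2.

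When 1 gene was left out of the choice of cells by 2 or more UMIs, thinning took its ratio to 0 for Pla2g7, Prr15 and Apoc1 at E12 and for Pla2g7 and Apoc1 at E15, from 5 to 33 cells, and to 4.47 for Prr15 and 5.97 for Apoc1 at P2, from 3 UMIs each.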
